A study of Mus musculus with 24 samples.

Results

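The 10 genes described here encode parts of the inflammasome and members of the interleukin-1 (IL-1) cytokine family: Nlrp3, Aim2, Pycard, Casp1, Casp4, Gsdmd, Il1a, Il1b, Il18 and Il1rn. They were taken as a named list from a table of 56205 mouse genes, all 10 were found in it, and all 10 passed the filter on low counts. The table holds RNA-Seq counts of whole mouse liver from 24 libraries of C57BL/6J mice of both sexes, kept for 20 weeks on a high-fat diet (FFD, 12 libraries) or on a control diet (12 libraries). The mice carried no transgene or knockout. The study's methods describe young adult mice and a diet rich in palm oil fat, fructose and cholesterol. The labels give no age and do not tie a library to a sex. RNA was poly(A)-selected, and libraries held between 14468418 and 22112552 counts on genes.

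An inflammasome is a protein complex that forms in the cytosol of macrophages and other cells when a sensor meets a danger signal, such as crystals or ion loss for NLRP3 or cytosolic DNA for AIM2. The sensor recruits the adaptor ASC, encoded by Pycard, which gathers caspase-1. Caspase-1 cuts the precursors of IL-1β and IL-18 into their active forms and cuts gasdermin D, which then forms pores in the cell membrane. Caspase-4 of the mouse, often called caspase-11, is activated by bacterial lipopolysaccharide inside the cell and also cuts gasdermin D. IL-1α and IL-1β bind the same receptor, and Il1rn encodes an antagonist that occupies this receptor without signaling. Much of this control acts on the proteins, which RNA counts do not measure. In the liver, Kupffer cells and recruited monocytes are known sources of IL-1, and hepatocytes are known to respond to it.

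On FFD, 8 of the 10 genes were higher than on the control diet and 0 were lower by edgeR's quasi-likelihood test. A gene was called when its adjusted p did not exceed 0.01 and its log2 fold change was beyond 0.5 in either direction. The sensors Nlrp3 and Aim2, the adaptor Pycard, the caspases Casp1 and Casp4, and the cytokine genes Il1a, Il1b and Il1rn rose between 1.72-fold and 2.91-fold. Gsdmd and Il18, the substrates with the highest levels per length of the 10, did not pass. Of all 17913 genes tested, 13.2% were called higher and 4.99% lower. DESeq2 and limma-voom gave the same counts of 8 and 0, and 1 of the 10 genes, Il18, was lower at an unadjusted p under 0.05 with edgeR and with both other tools. The median log2 fold change was 1.08 over the 10 genes and -0.03 over all genes tested. When library totals replaced TMM scaling (trimmed mean of M-values), the median of all genes moved to 0.26 and the counts stayed at 8 and 0. Over all genes tested, more were then called higher and fewer lower than with TMM. A label with a replicate number is all that separates the libraries of a diet, so p-values measure the spread between these libraries.

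**Figure D1:**
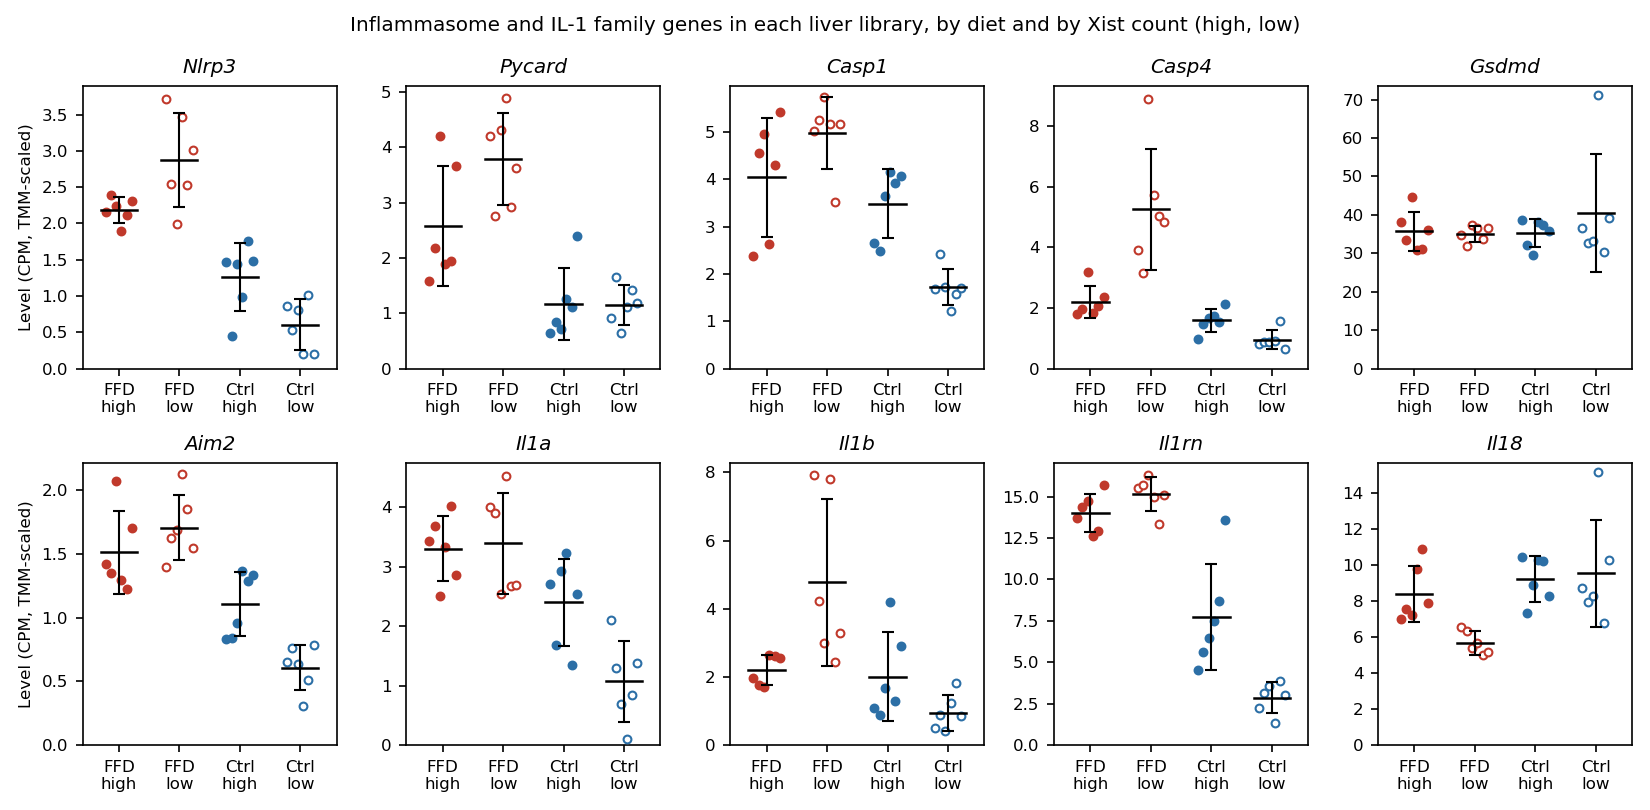
Level of each of the 10 genes in every library, in CPM (counts per 1000000 of the TMM-scaled library total), by diet and by whether the library held more (high, filled points) or fewer (low, open points) than 1000 Xist counts. Horizontal lines are means and bars are SDs of 6 libraries; the FFD and control libraries do not overlap for Nlrp3, while Gsdmd lies at similar levels in all 4 columns.

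The labels leave unnamed a further difference among libraries. Replicates 1 to 6 of both diets held at least 2664 counts of Xist, the noncoding RNA of the inactive X chromosome, and 0 counts of the Y-linked gene Ddx3y. Replicates 7 to 12 held at most 3 Xist counts and at least 448 Ddx3y counts. The sets match the 6 mice per diet and sex of the study's design, but they also match a run of replicate numbers, so sex and any batch of the numbering cannot be told apart. They are called the Xist-high and Xist-low libraries below. Control replicate 10 also stands apart, with the lowest depth and a TMM factor of 0.679, as does FFD replicate 3, which carried 1242 counts of S100a8 and 1537 of S100a9, genes of neutrophil granule proteins. Without both libraries the counts remained 8 higher and 0 lower.

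Nlrp3 lies on chromosome 11 (GRCm38, 59541568 to 59566956, plus strand) and encodes the sensor that names the best known inflammasome of macrophages. Its FFD libraries held from 38 to 88 counts (median 46.5), and its control libraries from 2 to 32 (median 17.0). In CPM the FFD libraries ran from 1.89 to 3.72 and the control libraries from 0.197 to 1.76. Every FFD library was above every control library, which was the case for 1.48% of all genes tested and for no other gene of the 10. None of the 10 lay with every FFD library below the controls, which 0.402% of all genes did. Mean levels were 2.53 ± 0.579 CPM on FFD and 0.934 ± 0.525 CPM on the control diet (SD, n = 12 each), a log2 fold change of 1.41 (SE 0.26, adjusted p = 0.000127 by edgeR). At 38 counts or more on FFD and as few as 2 on the control diet, the counting error is small on the first diet and large on the second.

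Aim2, the sensor of cytosolic double-stranded DNA (chromosome 1, 173350879 to 173466040, plus strand), was the gene with the fewest counts. FFD libraries held from 22 to 54 counts (median 32.0), against 3 to 29 (median 15.0) in the controls. The groups overlapped in part, since 9 of the 12 FFD libraries were above the highest control. Levels were 1.61 ± 0.295 CPM and 0.857 ± 0.333 CPM, a log2 fold change of 0.89 (SE 0.19, adjusted p = 0.000576). Aim2 overlaps the adhesion gene Cadm3 on the opposite strand in the GENCODE M21 annotation, with 3010 Cadm3 counts over the 24 libraries, and whether the counting used strand is not given in the sources used here.

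Pycard, the adaptor gene (chromosome 7, 127989708 to 127993867, minus strand), held from 30 to 124 counts on FFD (median 66.5) and from 11 to 52 in controls (median 17.5). In 8 FFD libraries the level exceeded the highest control, and the 4 others were all Xist-high libraries. Mean levels were 3.18 ± 1.12 CPM and 1.16 ± 0.50 CPM, and the log2 fold change was 1.45 (SE 0.23, adjusted p = 2.31e-05). The highest control was replicate 6 at 2.40 CPM, set apart from the other control libraries, which reached 1.65 CPM.

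The caspase genes Casp1 (chromosome 9, 5298517 to 5307265) and Casp4 (chromosome 9, 5308828 to 5336783) lie side by side on the plus strand with 1562 bases between them. Casp1 encodes the protease that matures IL-1β and IL-18. It held from 45 to 136 counts on FFD (median 95.0) and from 12 to 88 counts in controls (median 45.5). FFD replicates 1, 4 and 11 lay at 2.37, 2.64 and 3.51 CPM within the control range of 1.22 to 4.15 CPM. The overlap was wider than for the sensors, because 5 controls lay below the lowest FFD library, against 9 for Aim2 and 12 for Nlrp3. Means were 4.51 ± 1.10 CPM and 2.61 ± 1.08 CPM, with a log2 fold change of 0.78 (SE 0.20, adjusted p = 0.00299), the smallest of the genes called.

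Casp4, the caspase that meets lipopolysaccharide directly, had the largest log2 fold change of the 10. Counts ranged from 34 to 211 on FFD (median 59.0) and from 9 to 46 in controls (median 23.0). The highest value, 8.92 CPM in FFD replicate 9, was followed by 5.72 CPM in replicate 10, and the 6 Xist-low FFD libraries all lay at 3.14 CPM or more. In 8 FFD libraries the level exceeded the highest control. Mean levels were 3.73 ± 2.12 CPM and 1.27 ± 0.472 CPM, and the log2 fold change was 1.54 (SE 0.27, adjusted p = 6.84e-05). Without FFD replicate 9 it was 1.36.

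Gsdmd, the pore-forming substrate of both caspases (chromosome 15, 75862327 to 75867408, plus strand), did not differ between the diets beyond the spread. FFD libraries held from 560 to 926 counts (median 719.5), and control libraries from 535 to 786 (median 643.0). Levels were 35.4 ± 3.78 CPM and 37.9 ± 11 CPM, a log2 fold change of -0.10 (SE 0.11, adjusted p = 0.504). The larger control SD came from replicate 10, at 71.3 CPM, while the other controls reached 39.1 CPM. Without it the log2 fold change was 0.02, and with library totals in place of TMM it was 0.23, so the sign of this value turned with the scaling and it passed the call rule in neither case.

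The cytokine genes Il1a (chromosome 2, 129299610 to 129309972) and Il1b (chromosome 2, 129364570 to 129371139) are neighbors on the minus strand, 54597 bases apart. Il1a encodes IL-1α, an alarm cytokine that is active without caspase-1. Its counts ran from 47 to 115 on FFD (median 66.0) and from 1 to 61 in controls (median 28.5), with the lowest of these in control replicate 10. Of the FFD libraries, 7 were above the highest control. Levels were 3.35 ± 0.687 CPM and 1.74 ± 0.972 CPM, with a log2 fold change of 0.92 (SE 0.26, adjusted p = 0.00729). This call was lost in 11 of the 24 fits that left out 1 library each, with adjusted p up to 0.0131. Over all 24 such fits the log2 fold change ran from 0.82 to 1.03.

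Il1b, the gene of the cytokine that caspase-1 activates, was the most uneven of the genes called. Counts ranged from 32 to 198 on FFD (median 52.0) and from 7 to 77 in controls (median 20.0). FFD replicates 7 and 10 reached 7.92 and 7.81 CPM and the other FFD libraries lay between 1.71 and 4.23 CPM, while control replicate 4 stood at 4.21 CPM, so only 3 FFD libraries exceeded the highest control. Mean levels were 3.49 ± 2.15 CPM and 1.48 ± 1.09 CPM, a log2 fold change of 1.23 (SE 0.34, adjusted p = 0.00538). The call was lost without FFD replicate 7 (1.07, adjusted p = 0.0129), without FFD replicate 10 (1.08, adjusted p = 0.0132) or without control replicate 2 (1.18, adjusted p = 0.0101). FFD replicate 3, the library rich in neutrophil transcripts, had 32 Il1b counts, the lowest number on FFD.

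Il1rn (chromosome 2, 24336853 to 24351494, plus strand) encodes the receptor antagonist and had the least variable level on FFD relative to its mean. Its FFD libraries held from 232 to 386 counts (median 283.5), and its control libraries from 13 to 294 (median 80.0). Levels on FFD lay within 12.6 to 16.3 CPM, and 11 of the 12 controls were below all of them; control replicate 6, at 13.6 CPM, was the exception. Means were 14.6 ± 1.2 CPM and 5.28 ± 3.40 CPM, with a log2 fold change of 1.45 (SE 0.24, adjusted p = 3.77e-05).

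Il18 (chromosome 9, 50554827 to 50581840, plus strand) encodes the second cytokine precursor of caspase-1, which epithelial cells and macrophages make without prior stimulation. Counts ranged from 102 to 196 on FFD (median 135.5) and from 120 to 212 in controls (median 158.5). FFD libraries ran from 4.97 to 10.9 CPM and controls from 6.80 to 15.2 CPM, with 6 FFD libraries, all Xist-low, below the lowest control. Mean levels were 7.03 ± 1.82 CPM and 9.38 ± 2.19 CPM, a log2 fold change of -0.41 (SE 0.13, adjusted p = 0.0168), short of both thresholds. Il18 overlaps Bco2, a carotenoid-cleaving enzyme gene with 9231 counts over the 24 libraries, and the meiotic gene Tex12 on the opposite strand.

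Per length of merged exons, the order of the mean levels on FFD was Gsdmd at 14.9 ± 1.59, Il18 at 6.81 ± 1.77, Casp1 at 3.01 ± 0.736, Il1rn at 2.64 ± 0.216, Il1b at 1.83 ± 1.13, Il1a at 1.70 ± 0.348, Casp4 at 1.01 ± 0.571, Pycard at 0.838 ± 0.294, Nlrp3 at 0.624 ± 0.143 and Aim2 at 0.460 ± 0.0844 CPM per kilobase. The steps from Gsdmd to Il18 and from Il18 to Casp1 exceeded the SDs of the libraries, whereas each later step was smaller than the larger SD of its neighbors, apart from those from Il1a to Casp4 and from Nlrp3 to Aim2. On the control diet Gsdmd at 15.9 ± 4.62 and Il18 at 9.10 ± 2.13 CPM per kilobase were again the highest, and Nlrp3 at 0.230 ± 0.130 and Aim2 at 0.245 ± 0.0952 were the lowest and did not differ beyond their spread. The genes that rose were thus those at the lower levels per length, and the pore-forming substrate and the IL-18 precursor were abundant on both diets.

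The diet difference was then estimated within each set of libraries and the difference between the sets was tested as an interaction of diet and set. In Xist-low libraries 8 genes rose and 1, Il18, fell, and for each of these 9 the FFD and control libraries did not overlap. Over all genes tested in that set, 14.4% were called higher and 7.99% lower, and 12.6% lay with all FFD libraries above and 9.66% with all below the controls. In Xist-high libraries 0 of the 10 passed edgeR's test, 5 were higher and 0 lower at an unadjusted p under 0.05, and DESeq2 and limma-voom were not run within this set. There 2.90% of all genes were called higher and 0.882% lower. The interaction passed an adjusted p of 0.05 for 6 of the 10 genes, namely Nlrp3, Casp1, Casp4, Aim2, Il1b and Il1rn, against 10.2% of all genes tested. All 6 had the larger difference in Xist-low libraries. Il1a (adjusted p = 0.0880), Il18 (0.0919), Pycard (0.452) and Gsdmd (0.587) did not pass, which does not show that their differences were alike in both sets.

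**Figure D2:**
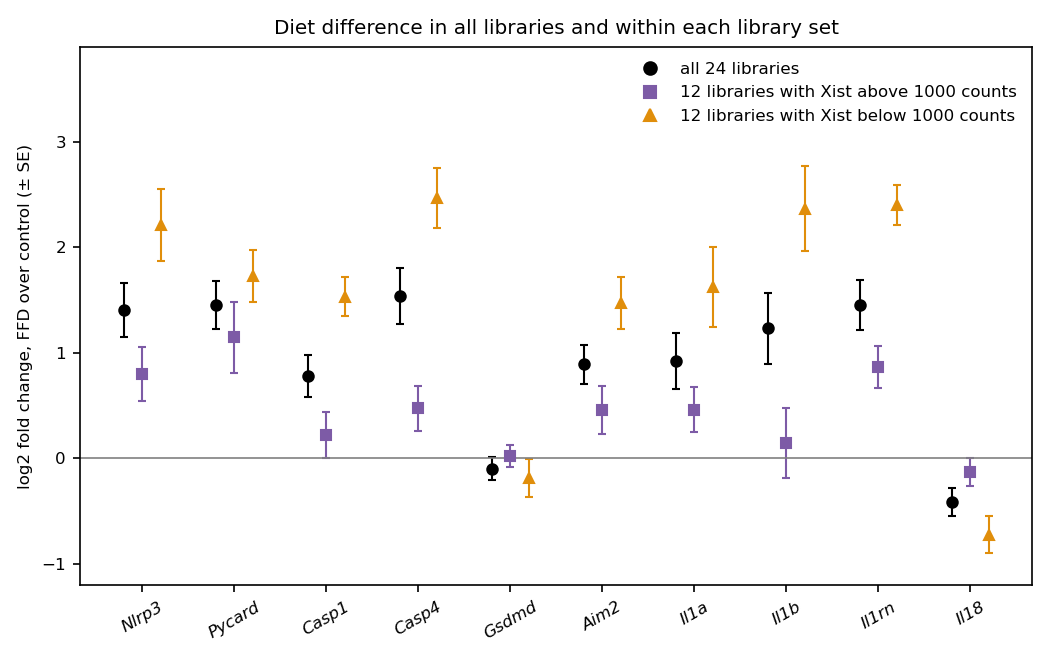
Log2 fold change of FFD over control for each gene in all 24 libraries (circles), in the 12 Xist-high libraries (squares) and in the 12 Xist-low libraries (triangles), with bars of 1 SE from edgeR. The triangle lies above the square for the 8 genes called higher and below it for Gsdmd and Il18.

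For Casp4, the log2 fold change was 0.48 in Xist-high and 2.47 in Xist-low libraries, an interaction of 1.99 (SE 0.35, adjusted p = 0.000782). Its Xist-high FFD libraries averaged 2.20 ± 0.526 CPM against 1.59 ± 0.374 CPM in controls, and its Xist-low FFD libraries 5.26 ± 2.01 CPM against 0.953 ± 0.323 CPM (SD, n = 6 each). Il1b was alike in this respect, with 2.21 ± 0.446 against 2.01 ± 1.29 CPM in the Xist-high set and 4.78 ± 2.46 against 0.944 ± 0.519 CPM in the Xist-low set. Its interaction was 2.22 (SE 0.54, adjusted p = 0.00987). For both genes the mean of the Xist-low libraries was thus higher on FFD and lower on the control diet than that of the Xist-high libraries. The same held for the other genes called higher, although the control means of Pycard were nearly alike, at 1.15 and 1.16 CPM.

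On the log2 scale of the mean levels, more of the difference between the sets lay in the controls than on FFD for Il1rn, Casp1 and Aim2, as it did for Nlrp3 and Il1a. Il1rn averaged 14 ± 1.16 CPM in Xist-high and 15.2 ± 1.0 CPM in Xist-low FFD libraries, but 7.72 ± 3.21 and 2.85 ± 0.933 CPM in the controls. Casp1 averaged 4.04 ± 1.25 and 4.98 ± 0.762 CPM on FFD, and 3.49 ± 0.737 and 1.72 ± 0.388 CPM on the control diet. For Il1rn, Casp1 and Aim2 all 6 Xist-low controls were below all 6 Xist-high controls, which was the case for 2.78% of all genes tested. The FFD libraries of the sets overlapped for these genes. The interactions were 1.52 for Il1rn (adjusted p = 0.00129), 1.30 for Casp1 (adjusted p = 0.00461) and 1.0 for Aim2 (adjusted p = 0.0385).

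Nlrp3 was the gene whose diets did not overlap in either set. In the Xist-high set all FFD libraries lay above the controls for 3.51% of all genes and below them for 2.38%. It averaged 2.18 ± 0.172 against 1.26 ± 0.472 CPM in the Xist-high set and 2.88 ± 0.647 against 0.604 ± 0.350 CPM in the Xist-low set, log2 fold changes of 0.80 (adjusted p = 0.0497) and 2.21 (adjusted p = 0.000190) with an interaction of 1.40 (adjusted p = 0.0350). Pycard had the largest difference of the 10 in the Xist-high set, 1.15 (adjusted p = 0.0346), against 1.73 in the Xist-low set. For Il18 the log2 fold changes were -0.13 and -0.72, the latter with an adjusted p of 0.00533.

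RNA of a whole liver mixes cell types, so in these bulk libraries more cells of a type and more RNA per cell cannot be told apart. Markers of leukocytes and macrophages rose alongside the inflammasome genes. All 6 of the general markers (Ptprc, Laptm5, Adgre1, Csf1r, Cd68 and Itgam) were called higher, and their summed level ran from 220 to 486 CPM on FFD and from 53.3 to 230 CPM on the control diet. All 6 markers of monocyte-derived macrophages were also called higher, with sums of 102 to 239 against 17.5 to 53.0 CPM and no overlap. Of these, Chil3 reached 34.7 CPM in FFD replicate 3 against an FFD median of 0.755 CPM, with 9 of 12 FFD libraries above the highest control. Of 6 Kupffer cell markers 2 were higher, Cd5l and Folr2, with sums over the 6 of 179 to 816 against 114 to 491 CPM. Cd5l alone averaged 259 ± 87.1 against 80.2 ± 43.3 CPM. The 4 others were not called, with log2 fold changes of 0.20 for Clec4f, 0.38 for Vsig4, 0.88 for Marco and -0.74 for Timd4. For both Marco and Timd4, 7 of 12 FFD libraries lay below the lowest control. Marco reached 118 CPM in FFD replicate 3, while its FFD median of 3.47 CPM was below the control median of 7.71 CPM. Of 5 tested neutrophil markers 4 were higher by edgeR and DESeq2 and 2 by limma-voom, with sums of 6.28 to 166 (median 8.78) against 1.84 to 7.15 CPM. The highest sum was that of FFD replicate 3, without which 3 were called and the median log2 fold change of the list was 1.42 in place of 2.88. No marker of these lists was at 0 in every library. Of 5 T cell markers 0 were called by edgeR, DESeq2 or limma-voom, with 1 higher and 1 lower at an unadjusted p under 0.05 in edgeR, although 3 of the 5 passed the test of interaction. Of 6 hepatocyte markers 5 were lower, but 1 with library totals in place of TMM and 1 in Xist-high libraries alone. The part of these cell types in the differences of the inflammasome genes was not tested.

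The pan-leukocyte gene Ptprc, which encodes CD45, also differed between the sets. Its log2 fold change was 0.49 in Xist-high and 2.02 in Xist-low libraries, an interaction of 1.52 (adjusted p = 0.000131), and 5 of the 6 general leukocyte and macrophage markers passed this test. Taken relative to Ptprc in the same library, Il1rn was 0.44 and Nlrp3 0.37 log2 units higher on FFD, Il1a, Il1b, Casp4 and Pycard lay between -0.03 and 0.18, and Aim2 and Casp1 were 0.31 and 0.42 log2 units lower. For Gsdmd and Il18 the difference was -1.33 and -1.69. These ratios were chosen after the levels had been seen and are given without a test. Within the sets the values could differ, as for Pycard, at 0.68 in the Xist-high and -0.31 in the Xist-low libraries.

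Antagonists and decoys were set against their partners within each library, which removes the scaling between libraries. In counts, which are not corrected for length, the antagonist Il1rn exceeded Il1b on both diets. The mean log2 ratio was 2.24 ± 0.693 on FFD and 1.86 ± 0.839 on the control diet (SD, n = 12 each). The merged exons span 5535 bases for Il1rn and 1907 bases for Il1b, which adds to this ratio on both diets. Per kilobase, Il1rn and Il1b averaged 2.64 ± 0.216 and 1.83 ± 1.13 CPM on FFD. On the control diet they averaged 0.955 ± 0.614 and 0.774 ± 0.573 CPM per kilobase, within their spread. The difference in the log2 ratio between the diets, 0.39 (SE 0.31), was within the spread, with an adjusted p of 0.232 by a two-sided permutation test over 3 ratios. A change in the ratio was thus not detected, which does not show that antagonist and cytokine rose alike. In Xist-high libraries edgeR's log2 fold change was 0.87 for Il1rn (adjusted p = 0.0113) and 0.15 for Il1b (adjusted p = 0.822). In Xist-low libraries it was 2.40 and 2.37. Within the sets the difference in the log2 ratio was 0.62 in Xist-high (exact permutation p = 0.0628) and 0.15 in Xist-low libraries (exact permutation p = 0.762).

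**Figure D3:**
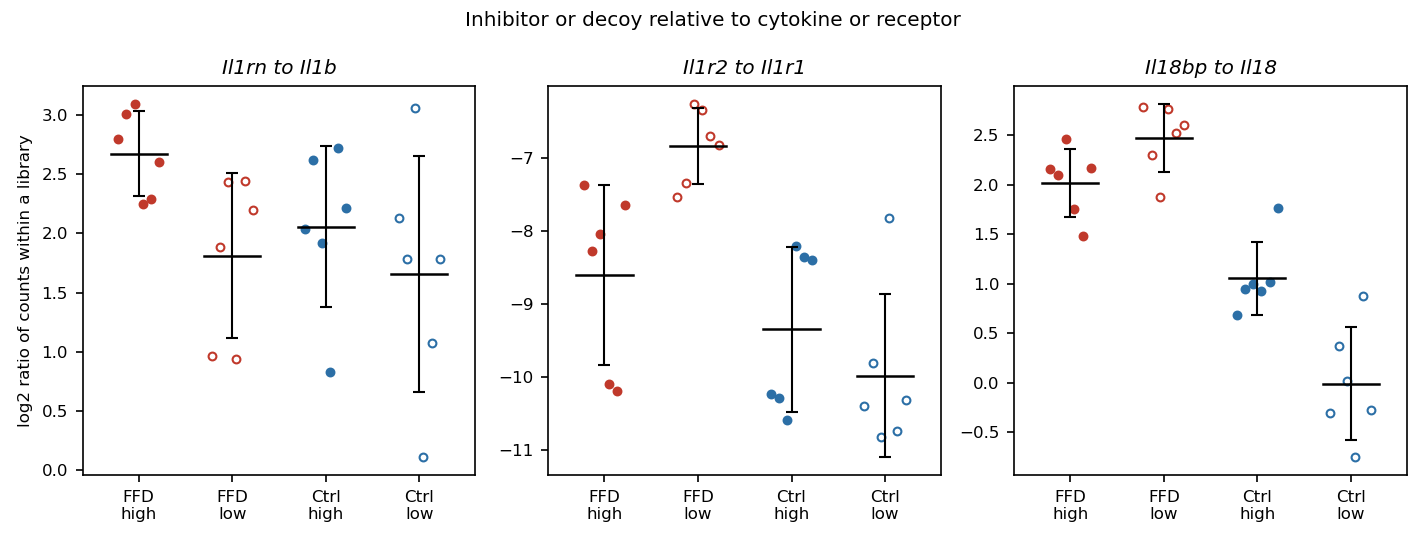
Log2 ratio of counts within a library for Il1rn to Il1b, Il1r2 to Il1r1 and Il18bp to Il18, by diet and by more (high, filled) or fewer (low, open) than 1000 Xist counts. Horizontal lines are means and bars SDs of 6 libraries; 10 of 12 FFD libraries lie above the highest control for Il18bp to Il18 and 1 of 12 for Il1rn to Il1b.

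For IL-18 a difference in the ratio between the diets was detected. Il18bp encodes the secreted protein that binds IL-18 and blocks it, and it rose from 14.4 ± 6.35 to 33.1 ± 6.34 CPM (log2 fold change 1.2, SE 0.19, adjusted p = 2.30e-05), while Il18 itself did not rise. Per kilobase, Il18bp averaged 10.9 ± 2.09 CPM on FFD, above Il18 at 6.81 ± 1.77. On the control diet it averaged 4.75 ± 2.10 CPM per kilobase, below Il18 at 9.10 ± 2.13. In counts, which are not corrected for length, the log2 ratio of Il18bp to Il18 was 2.25 ± 0.406 on FFD and 0.52 ± 0.721 on the control diet. The difference of 1.73 (SE 0.24) had a p of 2e-05, the smallest that 100000 two-sided resamples can give (adjusted p = 6e-05), and 10 of 12 FFD libraries lay above the highest control. It was 0.97 in the Xist-high (exact permutation p = 0.00649) and 2.49 in the Xist-low libraries (exact permutation p = 0.00216, the smallest that 6 against 6 allows).

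Il1r2 encodes the decoy receptor for IL-1. It rested on few counts, 0 to 12 on FFD and 0 to 2 on the control diet, against 340 or more for the signaling receptor Il1r1. The log2 ratio of Il1r2 to Il1r1 was 1.95 higher on FFD (SE 0.50, adjusted p = 0.00204 by permutation). It was 0.74 in Xist-high libraries (exact permutation p = 0.247) and 3.16 in Xist-low libraries (exact permutation p = 0.00216). Il1r1 did not pass on its own, and its highest value was 3304 counts in FFD replicate 3, against 907 counts in the highest control.

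**Figure D4:**
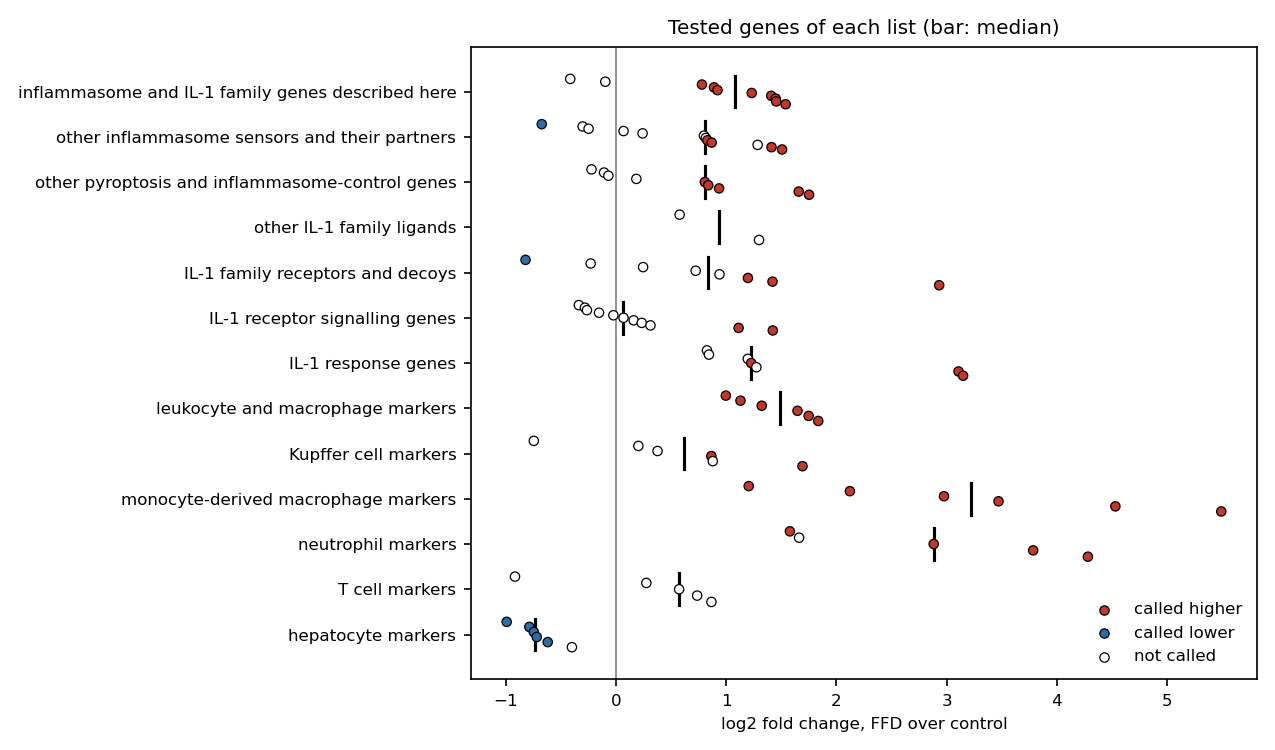
Log2 fold change of FFD over control for each tested gene of the 10 described here, of 6 lists of related genes and of 6 lists of cell type markers, with the median of each list as a bar. The median of the 10 genes is 1.08, that of the IL-1 receptor signaling genes 0.07 and that of the monocyte-derived macrophage markers 3.22.

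Other sensors and their partners were divided. Of 12 tested, 4 rose, 1 fell and 7 did not pass, with a median log2 fold change of 0.81. Mefv, which encodes pyrin, a sensor of inhibited RhoA, rose by 1.51 (SE 0.32, adjusted p = 0.000529), and 11 of its 12 FFD libraries were above the highest control. Nlrc4, which assembles with the NAIP receptors of bacterial flagellin and secretion needles, rose by 1.41 (adjusted p = 0.000818), Naip6 by 0.87 and Naip5 by 0.83. Nlrp6, an epithelial sensor, fell by 0.67 on the log2 scale (116 ± 39.3 CPM against 185 ± 33.2 CPM, adjusted p = 0.00135), and Nek7, the kinase that binds NLRP3, was at -0.25 (adjusted p = 0.00474), short of the fold threshold. The call of Nlrp6 was lost with library totals in place of TMM, and its log2 fold change was -0.34 in Xist-high (adjusted p = 0.0594) and -1.13 in Xist-low libraries, with an adjusted p of 0.00241 for the difference between them. The Naip genes are near-identical copies that can share reads.

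Among the other genes of pyroptosis and its control, 5 of 9 tested rose and 0 fell by edgeR, with 1 lower at an unadjusted p under 0.05. Casp12 lies 8646 bases from Casp4 and held from 49 to 506 counts on FFD and from 16 to 65 in controls, with a log2 fold change of 1.75 (SE 0.36, adjusted p = 0.000401). Its interaction of diet and set was 2.18 (adjusted p = 0.00265). Panx1, a channel that releases ATP, rose by 1.66 (SE 0.28, adjusted p = 5.12e-05) with no overlap between the diets. P2rx7, the ATP-gated channel that starts the ion loss sensed by NLRP3, rose by 0.81 with 10 FFD libraries above the highest control, and the guanylate-binding proteins Gbp2 and Gbp5, which act on microbial membranes, rose by 0.94 and 0.84. Casp8, Gsdme, Ninj1 and Txnip lay between -0.22 and 0.19, and Gsdma had too few counts to be tested.

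Of the other IL-1 ligands, Il36a, Il36b, Il36rn and Il1f10 were at 0 in all 24 libraries, and Il33 and Il36g were tested. By edgeR 0 of these 2 were called, with 1 higher at an unadjusted p under 0.05. DESeq2 called 1 and limma-voom 0. Il33, a nuclear alarm cytokine, was at 2.74 ± 0.747 against 1.81 ± 0.691 CPM (log2 fold change 0.58, adjusted p = 0.0480).

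Receptors and signaling genes decide how a cell reads these ligands. Of 8 receptors and decoys tested, Il1r2, Il1rl2 and Il18bp rose and Il1rap fell. Il1rap encodes the shared accessory chain of the IL-1, IL-33 and IL-36 receptors, and its level was 70.8 ± 20.2 CPM on FFD and 125 ± 24.9 CPM on the control diet (log2 fold change -0.82, SE 0.14, adjusted p = 7.26e-05), with 10 FFD libraries below the lowest control. Its fall was -0.26 in Xist-high (adjusted p = 0.112, not called) and -1.41 in Xist-low libraries, and the difference between the sets passed (adjusted p = 8.58e-05). Of 11 signaling genes 2 rose and 9 did not pass, against 13.2% called higher over all genes. Tnfaip3, the ubiquitin-editing enzyme A20, rose by 1.42 (SE 0.16, adjusted p = 7.18e-07) with no overlap between diets, and Irak3, an inactive kinase that holds back IRAK signaling, by 1.11 (adjusted p = 0.00120). Tollip, an adaptor that dampens the same step, was at -0.34 with an adjusted p of 0.000456, under the fold threshold.

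Genes known to respond to IL-1 were tested as well, although other cytokines induce them too. Of 7 tested, Ccl2, Lcn2 and Icam1 rose, and none of the 3 overlapped between the diets. Ccl2, a monocyte chemokine, held 20 to 208 counts on FFD and 1 to 20 on the control diet, with a log2 fold change of 3.15 (SE 0.32, adjusted p = 2.08e-07). Lcn2, an iron-binding acute-phase protein of hepatocytes and neutrophils, rose by 3.11 and the adhesion gene Icam1 by 1.23. The serum amyloid genes Saa1, Saa2 and Saa3 and the chemokine Cxcl1 had log2 fold changes from 0.83 to 1.27 that did not pass edgeR's test. Of the 7 genes, DESeq2 called 3 higher and limma-voom 6. In Xist-high libraries alone 5 were called, among them Saa1 (2.87, adjusted p = 0.00711) and Saa2 (3.07, adjusted p = 0.00673), while in Xist-low libraries these were at 0.42 and 0.23 and did not pass. FFD replicate 3, an Xist-high library, held the highest levels of Saa1, Saa2 and Lcn2, at 998, 831 and 798 CPM. The Xist-high FFD libraries averaged 261 ± 362 CPM for Saa1 and 209 ± 305 CPM for Saa2. The Xist-high controls averaged 35.8 and 25.1 CPM. In the Xist-low set, Saa1 averaged 214 ± 61.0 CPM on FFD and 160 ± 170 CPM in controls. Saa2 averaged 158 ± 53.3 and 135 ± 151 CPM there, so the Xist-low controls were higher and more scattered than the Xist-high controls. How far the Xist-high values of Saa1 and Saa2 rest on replicate 3 was not tested. For Saa1 and Saa2 the differences between the sets had adjusted p of 0.0732 and 0.0562. Il6 and Ptgs2 had too few counts to be tested.

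Promoters were read from RefSeq (GRCm38.p6) for 9 of the 10 genes, and none was found for Gsdmd. They are shown for the neighboring pairs Casp1 and Casp4, and Il1a and Il1b, because each pair shares a locus and all 4 genes were called higher. Each sequence is the 250 bases before the start site, 5′ to 3′ on the strand of the gene. Capitals mark matches on either strand to 4 motifs. For the factor NF-kB the letters searched were GGGNNNNNCC. For the factor AP-1 they were TGANTCA, and for a TATA box, which positions the polymerase, TATAAA. The interferon-stimulated response element (ISRE) was searched as GAAANNGAAA. Overlapping matches are drawn as 1 run.
Casp1 (chr9:5298267-5298516, plus strand): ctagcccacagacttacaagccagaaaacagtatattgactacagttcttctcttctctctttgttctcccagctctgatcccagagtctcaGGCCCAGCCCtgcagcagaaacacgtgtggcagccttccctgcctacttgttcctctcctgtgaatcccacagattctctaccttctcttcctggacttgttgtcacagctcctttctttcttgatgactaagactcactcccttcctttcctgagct
Casp4 (chr9:5308599-5308848, plus strand): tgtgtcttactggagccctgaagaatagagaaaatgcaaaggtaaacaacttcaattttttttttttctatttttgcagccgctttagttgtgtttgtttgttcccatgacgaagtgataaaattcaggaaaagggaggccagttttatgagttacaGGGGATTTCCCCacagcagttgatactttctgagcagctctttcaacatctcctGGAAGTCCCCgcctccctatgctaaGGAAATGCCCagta
Il1a (chr2:129309973-129310222, minus strand): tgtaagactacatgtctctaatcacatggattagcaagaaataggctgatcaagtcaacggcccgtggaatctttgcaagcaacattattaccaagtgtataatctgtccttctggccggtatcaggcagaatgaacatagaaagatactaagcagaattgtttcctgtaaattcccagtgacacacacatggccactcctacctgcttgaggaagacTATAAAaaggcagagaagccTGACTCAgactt
Il1b (chr2:129371140-129371389, minus strand): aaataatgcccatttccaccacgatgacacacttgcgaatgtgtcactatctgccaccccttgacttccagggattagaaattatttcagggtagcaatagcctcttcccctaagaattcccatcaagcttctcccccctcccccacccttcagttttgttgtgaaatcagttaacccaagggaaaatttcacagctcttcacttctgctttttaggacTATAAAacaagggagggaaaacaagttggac
The Casp1 promoter holds 1 NF-kB match and that of Casp4 holds 5, of which 3 overlap, and neither holds a TATA box. The cytokine promoters each hold a TATA box, 32 bases before the start for Il1a and 31 bases before it for Il1b, and Il1a an AP-1 match 12 bases before the start. Over the 9 genes, 4 had an NF-kB match, 2 an AP-1 match, 3 a TATA box and 0 an ISRE, counting a gene when any of its promoters matched. The third TATA match, in Il18, lies 175 bases before the start and reads on the opposite strand. For Il18 the bases after the start site were also not found in a GENCODE transcript of the gene. Over 32851 RefSeq promoters of this length, 45.8% held the NF-kB letters, 6.75% those of AP-1, 12.4% a TATA box and 2.98% an ISRE. These percentages are per promoter, whereas the counts above are per gene over 13 promoters, so they are not on the same scale. A match describes these letters and is not evidence of binding.

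Genes whose levels followed those of Nlrp3, Il1b, Il1rn and Casp1 most closely were taken from 13907 genes by Pearson's r of log2 levels over the 24 libraries, after the mean of each diet and set was removed. Nlrp3 was followed by Kcnk13, a potassium channel gene (r = 0.81), and Nfam1, an immune receptor gene (r = 0.79). Il1b was followed by the myeloid lectin genes Clec4a3 (r = 0.87) and Clec12a (r = 0.85). For Il1rn the genes were Gbp2 (r = 0.86) and Ciita (r = 0.84), the latter the master activator of MHC class II, although Spearman's rho was 0.60 and 0.61 for them. For Casp1 they were Sp110 and Phf11b, at 0.68 each. The points share their depth and scaling, and the genes were picked for the highest values, so no p is given. Among the 10 genes the highest r was that of Pycard and Casp1, 0.64, while the adjacent Casp1 and Casp4 had 0.35 and Il1a and Il1b 0.31.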

How the data were processed

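The deposited table gives raw counts of reads per Ensembl gene for 24 poly(A)-selected liver libraries, which the authors did not normalize. The submitters' processing notes list bcl2fastq, STAR 2.7.3a and the mm10 build, and the counting program, strand setting and annotation are not given in the sources used here. Columns were matched to libraries by title. Symbols, locations and exon lengths came from GENCODE M21 (GRCm38) and were found for 51745 IDs. The 4460 others held 0.0723% of counts.

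From the deposited counts, genes counted at 1 or more in 12 or more libraries were tested with edgeR 4.0.16 in R 4.3.3 (TMM, quasi-likelihood, diet as the only term, Benjamini-Hochberg over all 17913). The thresholds are those of the study's methods. SE was obtained as |log2 fold change| / √F. CPM is counts per 1000000 of the TMM-scaled total. Ratios used a pseudocount of 0.5, and correlations log2(CPM + 1) for genes with a mean count of at least 10. The code was tested on simulated data. Alternatives were DESeq2 1.42.0, limma-voom (limma 3.58.1), library totals or DESeq2's size factors, other filters and thresholds, the replicate number as a block, the library set as a covariate, each set alone, and each library left out. Leaving out FFD replicate 3 with control replicate 10, and the ratios to Ptprc, were added after seeing the data. All pairs of libraries within a diet differed by more than sampling noise. Correlations of the deviations of same-numbered libraries ran from -0.09 to 0.54 and were over 0.1 for 11 of 12 numbers. Pairing was taken only where all were over 0.1, and the numbers were therefore not used as pairs. The 10 genes, all related lists and all markers were chosen with earlier results of these data known, and every gene of a list counts under the rule for named genes. The genes most like a member were limited to the 2 with the highest r.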

Additional observations from a re-analysis of the deposited data

Results flagged for a closer look

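For 6 of the 10 genes the diet difference itself differed between libraries with fewer and with more than 1000 Xist counts, by edgeR's quasi-likelihood test of the interaction of diet and set, adjusted over all genes tested. The interaction, given as the log2 fold change in Xist-low minus that in Xist-high libraries, was 1.40 for Nlrp3 (adjusted p = 0.0350), 1.30 for Casp1 (adjusted p = 0.00461) and 1.99 for Casp4 (adjusted p = 0.000782). It was 1.0 for Aim2 (adjusted p = 0.0385), 2.22 for Il1b (adjusted p = 0.00987) and 1.52 for Il1rn (adjusted p = 0.00129). With library totals in place of TMM the interaction of Il1a, 1.48, passed too (adjusted p = 0.0231), so that 7 of the 10 genes passed. Over all genes tested, 10.2% passed with TMM. The share with library totals was not computed, so the count of 7 has no share to be set against. The sets were split by measured Xist counts and are not groups given in the labels, and sex and any batch of the replicate numbers cannot be told apart.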

How the results depend on the processing

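Over all alternatives, 367 of 370 fold changes of the 10 genes had the sign given above and 341 had the same call. The number of genes of the 10 called higher was 5 when a log2 fold change over 1 was asked (Casp1, Aim2 and Il1a no longer passed), 0 in the Xist-high libraries alone, and 6 to 8 when 1 library was left out. The number called lower was 1, Il18, at an adjusted p of 0.05 without a fold threshold and in the Xist-low libraries alone. With the replicate number as a block, 6 of the 10 were called higher, since Il1a (1.06, adjusted p = 0.0101) and Il1b (1.25, adjusted p = 0.0139) no longer passed, and over all genes 2063 were higher and 844 lower. The numbers gave a positive correlation of deviations over 0.1 in 11 of 12 cases, and 6 of 24 libraries correlated best with their own number of the other diet. The latter count removed only the mean of each diet, and same-numbered libraries share their Xist set. Whether pairing or the set gave these values was not tested. The calls of Il1a were lost without FFD replicates 1, 5, 7, 8 or 10 or control replicates 2, 5, 8, 9, 11 or 12, and those of Il1b without FFD replicates 7 or 10 or control replicate 2, where fewer libraries entered. Of the 7 IL-1 response genes, 3 were called higher as given above, 5 with library totals and 7 with the block, which called 1 of 5 neutrophil markers. Over all genes, 3827 were called higher and 226 lower with library totals, 3709 and 3388 at an adjusted p of 0.05 without a fold threshold, and 520 and 158 in the Xist-high libraries alone. There were 216 lower at a log2 fold change over 1 and 1431 lower in the Xist-low libraries alone. The ratio of Il1r2 to Il1r1 no longer passed in Xist-high libraries (0.74, exact permutation p = 0.247). Beyond the thresholds, the smaller sets and the omissions, the cause of these changes was not tested. Most of the 10 genes rest on fewer than 100 counts per library in the controls, which limits small differences.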
